A study of Homo sapiens with 6 samples.

Results

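Interferon-stimulated genes are the genes that a cell switches on after it has sensed viral or other foreign nucleic acid, or after it has received interferon from its neighbours. A list of 34 such genes was followed in U87 cells, an established human glioma cell line, and each was found by its symbol in the tables of 57905 gene identifiers that the files hold. The 34 genes were listed by their known place in the interferon response, with earlier results of these libraries known. Total RNA was sequenced in 3 libraries labelled control (wild type, with no treatment) and 3 libraries labelled siRBM47 (given small interfering RNA whose target, RBM47, encodes a protein that binds RNA). The protocol text, the same on all 6 samples, describes transfection of 100 pmol siRNA with Lipofectamine 3000. The labels do not say whether the control cells received the lipid reagent or a control siRNA, so an effect of the transfection, of the added RNA and of its target cannot be told apart here. No label says that the replicates came from separate cultures, and p-values then measure only how these libraries vary, which may be a technical spread.

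In the textbook pathway, the cytoplasmic RNA sensors RIG-I (gene RIGI) and MDA5 (gene IFIH1) signal through the adaptor MAVS to the factors IRF3 and IRF7, which start transcription of the type I interferons. Secreted interferon binds its receptor and activates the kinases JAK1 and TYK2, and these phosphorylate STAT proteins, STAT2 among them. With IRF9 they form the complex ISGF3, which binds the interferon-stimulated response element (ISRE) in front of many of these genes, while interferon gamma acts through the gamma-activated sequence (GAS). Long double-stranded RNA and RNA with a 5′ triphosphate are known triggers of the sensors, and short synthetic duplexes have been reported to trigger them in some cells. Whether the libraries labelled siRBM47 carried such a response is the question these genes address.

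The promoters of the listed genes hold the letters that ISGF3 is known to bind more often than promoters in general. The genes were listed by their known place in the interferon response, so this describes the list and cannot check it. In windows from 250 bases before to 50 bases after the gene start (RefSeq, build GRCh38.p14), 27 of the 34 genes had an entry. The ISRE core letters, GAAA and GAAA with any 2 bases between them and searched on both strands, were present in 17 of these 27 windows (63.0%), against 996 of all 27305 windows (3.65%). The GAS letters, TTC and GAA with any 3 bases between them, which can overlap an ISRE match, were present in 9 of the 27 (33.3%), against 7.88% of all windows, and 6 of the 27 held neither. A match is a description of letters and not a measured binding site. Of the genes printed next, IFIT1, IFIT3, IFIT5, PARP14 and ISG20 were called only without control replicate 3 in the comparison below. ISG15, DDX60 and BST2 were called in no fit. The stretches are printed to show the spacing and number of the matches that end before the gene start. They run 5′ to 3′ on the gene's strand, the capitals mark these ISRE core matches on either strand, and all bases lie before the gene start. IFIT5 has a further match that runs across the gene start and is not marked.
IFIT1 (chr10:89392487-89392549, plus strand): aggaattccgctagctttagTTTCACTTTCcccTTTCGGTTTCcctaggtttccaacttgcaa
IFIT3 (chr10:89327821-89327904, plus strand): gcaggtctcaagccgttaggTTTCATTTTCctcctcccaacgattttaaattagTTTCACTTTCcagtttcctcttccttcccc
IFIT5 (chr10:89414503-89414567, plus strand): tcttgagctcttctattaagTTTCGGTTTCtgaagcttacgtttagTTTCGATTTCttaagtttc
ISG15 (chr1:1013364-1013419, plus strand): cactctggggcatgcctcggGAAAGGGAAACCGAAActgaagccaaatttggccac
ISG20 (chr15:88638927-88638976, plus strand): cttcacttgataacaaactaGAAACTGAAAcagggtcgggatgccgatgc
PARP14 (chr3:122680790-122680838, plus strand): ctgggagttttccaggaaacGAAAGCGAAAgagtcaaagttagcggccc
DDX60 (chr4:168318776-168318860, minus strand): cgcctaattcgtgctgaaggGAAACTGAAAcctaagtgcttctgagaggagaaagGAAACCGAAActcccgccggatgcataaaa
BST2 (chr19:17405725-17405780, minus strand): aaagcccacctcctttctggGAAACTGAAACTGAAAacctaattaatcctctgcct

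The pair of interferon regulatory factor genes shown next carried GAS letters and no ISRE core, with the GAS match in capitals.
IRF1 (chr5:132490869-132490917, minus strand): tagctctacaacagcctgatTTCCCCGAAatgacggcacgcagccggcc
IRF9 (chr14:24161182-24161230, plus strand): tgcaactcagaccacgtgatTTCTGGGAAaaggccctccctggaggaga

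In the ISG15 and BST2 stretches a pair of ISRE cores overlapped, and in IFIT1, IFIT3 and IFIT5 the cores lay side by side or a short distance apart. RIGI, IFI16, XAF1, PARP9, STAT2 and RSAD2 held neither motif in this window, which says only that these letters are not in these bases. IFIT2, MX2, OAS2, OASL, IRF7, USP18 and IFITM2 had no window.

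**Figure D1:**
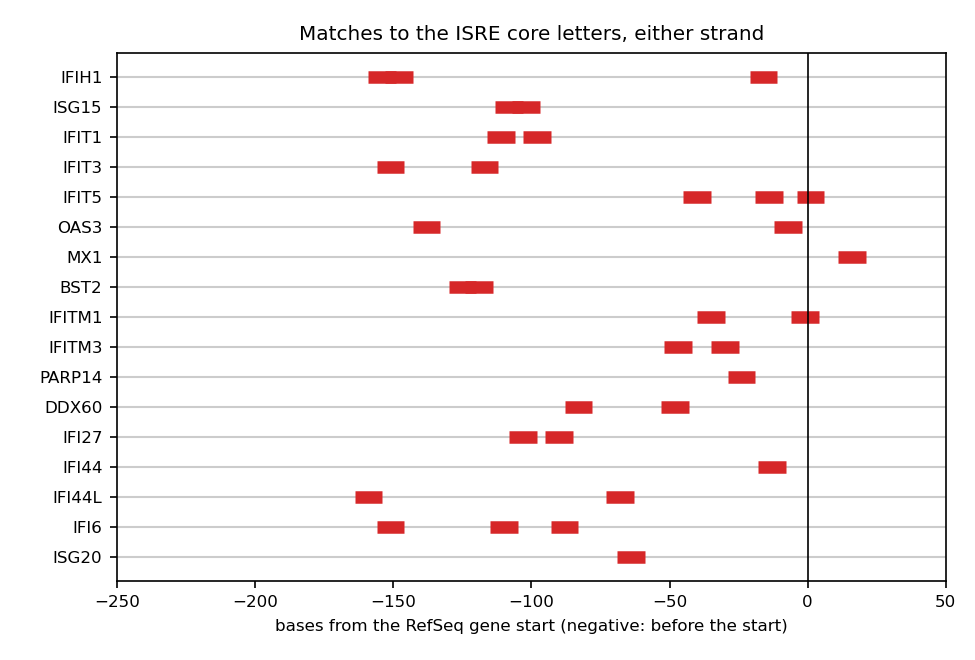
Positions of ISRE core matches (red bars, either strand) in bases from the RefSeq gene start for the 17 interferon-stimulated genes that hold one. Most matches lie before the start, and the match in MX1 lies after it.

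The libraries held between 15575297 and 18128549 counts, so a count of 0 allows up to 3 counts, or 0.160 to 0.203 CPM (read counts per library, put on a common library size with TMM scaling). Such limits cover counting error only. The targeted gene RBM47 was counted 24, 30 and 108 times across the controls and 64, 48 and 40 times across the siRBM47 libraries, replicates always being given in the order 1, 2, 3. Only control replicate 3 made the groups overlap. At 3.54, 2.74 and 2.23 CPM, every siRBM47 library lay below it (5.75 CPM) and above control replicates 1 and 2 (1.62 and 1.73 CPM). With all 6 libraries the log2 fold change was -0.11 with a standard error (SE) of 0.50, and the edgeR adjusted p was 0.942. The name siRBM47 is therefore used here as the label of these libraries and not as a measured depletion. Control replicate 3 stood apart from the other controls over all genes: a chi-square of its counts, divided by the degrees of freedom, came to 144.83 and 117.05 against control replicates 1 and 2, to 10.74 between those 2, and to 15.11 to 37.11 among the siRBM47 libraries. Values without it are therefore given for the genes whose call it changes. Markers of the labelled cells were mixed: TNC, an extracellular matrix gene of glioma, had counts of 13773 to 23467, while the astrocyte gene GFAP had 5 to 28 counts and AQP4 had 0 in every library.

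Per gene length, in FPKM, 7 of the 34 interferon-stimulated genes averaged over 10 across the 6 libraries, 14 lay between 1 and 10, and 13 lay under 1. The most abundant were IFITM3 at 67.6 ± 17.7 FPKM in control and 59.2 ± 6.43 in siRBM47 (SD, n = 3 in each group), IFI6 at 59.3 ± 12.2 and 56.0 ± 2.29, and ISG15 at 42.9 ± 14.5 and 47.9 ± 0.665. IFITM3 and IFI6 differed by less than the spread between the control libraries, so their order is not resolved. IFI16 followed at 29.1 ± 2.37 and 25.7 ± 6.88 FPKM. At the low end stood RSAD2 (0.0587 ± 0.0900 and 0.0152 ± 0.0264 FPKM), IFI27 (0.0891 ± 0.120 and 0.0758 ± 0.0271) and MX1 (0.179 ± 0.0398 and 0.214 ± 0.0418), which are widely used markers of an interferon response. The abundant genes were thus present in every control and siRBM47 library, while RSAD2 and IFI27 had libraries with a count of 0 and MX1 had 21 to 38 counts.

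**Figure D2:**
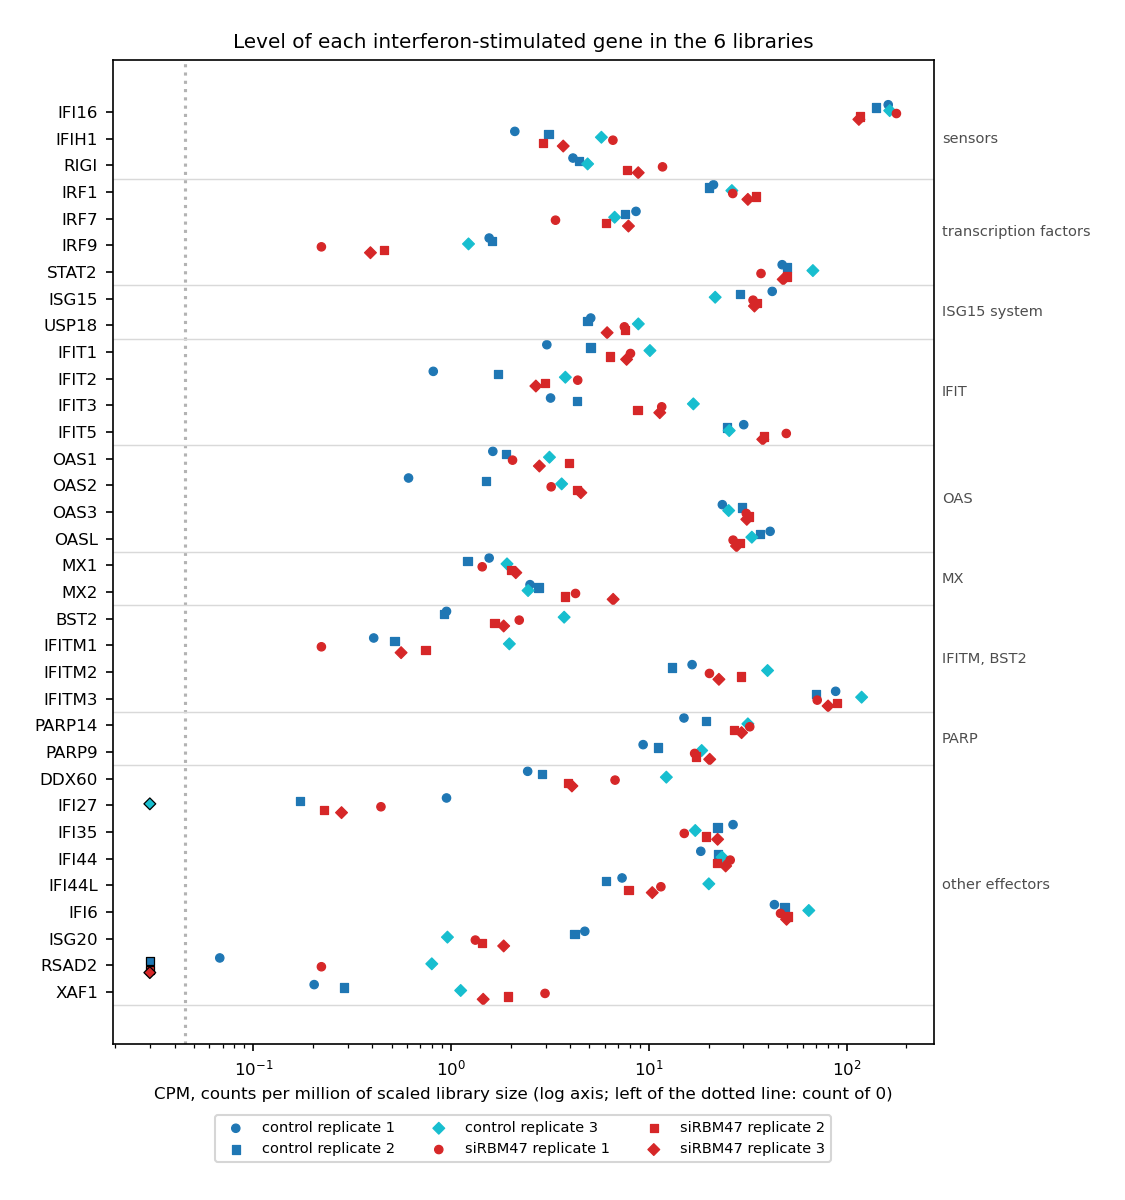
CPM of each of the 34 genes (log axis) in each of the 6 libraries, grouped by role, with control libraries in blue and siRBM47 libraries in red. Control replicate 3 (cyan diamonds) often lies among or above the siRBM47 libraries, as for IFIT3, and RIGI and IRF9 are separated by group in every library.

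In the comparison of siRBM47 with control, 32 of the 34 genes had enough counts to be tested, and none was called in either direction by edgeR's quasi-likelihood test at an adjusted p of 0.05. Over all 14578 tested genes the same test called 0.0823% higher and 0.137% lower, so at this spread few genes of any kind were called. At an unadjusted p under 0.05, 5 of the 32 were higher and 2 lower, against 7.15% and 8.94% of all tested genes. Of the 32 log2 fold changes, 20 were positive and 12 negative, with a median of 0.17 beside -0.01 over all tested genes. DESeq2 called RIGI higher and IRF9 lower (1.79% and 2.63% of all genes), limma-voom called 0 in both directions (0.0892% and 0.144%), and edgeR with no filter on low counts called RIGI and XAF1 higher and IRF9 lower (1.20% and 1.76%). EdgeR with RLE scaling or upper quartile scaling called 0 at the same background shares, and with a minimum count of 50 it called 0 beside 0.162% and 0.196% of all genes. Every siRBM47 library lay above every control library for 6 of the 32 genes (RIGI, XAF1, MX2, IFIT5, IRF1 and OAS3) and below for 2 (IRF9 and OASL), against 11.6% and 11.0% of all tested genes.

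Control replicate 3 decided the count of calls. Without it edgeR called 11 of the 32 genes higher (34.4%, against 10.1% of all tested genes) and 2 lower (against 11.3%), and the median log2 fold change of the 32 was 0.58 beside 0.02 for all genes. The 11 higher genes were IFIT1, IFIT2, IFIT3, IFIT5, OAS2, IRF1, RIGI, XAF1, PARP9, PARP14 and IFITM2, and the 2 lower were IRF9 and ISG20. Of the 11, 8 had a promoter window and 4 of these held an ISRE core, beside 17 of the 27 windows over all the listed genes. DESeq2 and limma-voom without this library, fits that were added after the values were seen, called the same 11 higher (11.2% and 9.56% of all tested genes). Both called IRF9 and ISG20 lower, and DESeq2 also called OASL lower. That is 9.38% of the 32 genes by DESeq2 and 6.25% by limma-voom, against 11.9% and 11.7% of all tested genes. Leaving out any one of the other 5 libraries left 0 edgeR calls among these genes, with 3 or 4 higher and 1 or 2 lower at an unadjusted p under 0.05, against 4.10% to 5.63% higher and 5.50% to 7.18% lower among all tested genes. In those fits few of all tested genes were called either, 0.0412% higher and 0.0892% lower without control replicate 1, 0.0274% and 0.0549% without control replicate 2, and 0% in both directions without any one siRBM47 library. Control replicate 3 itself lay above both other controls for 23 of the 32 genes (71.9%, against 44.9% of all tested genes), and at least 2-fold above their mean on the log2 scale for 11 (34.4%, against 10.4%). The median log2 difference between it and that mean was 0.55 over all 32 genes and 0.01 over all tested genes. It was the highest of the 6 libraries for 34.4% of the 32 genes and for 25.4% of all tested genes. All 3 siRBM47 libraries lay above control replicates 1 and 2 for 18 of the 32, against 27.1% of all tested genes. With control replicate 3 kept, RIGI, IRF9 and XAF1 were called under at least 1 alternative, and the other 10 of these 13 genes had adjusted p from 0.0798 to 0.993 over the alternatives. What sets control replicate 3 apart was not tested.

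**Figure D3:**
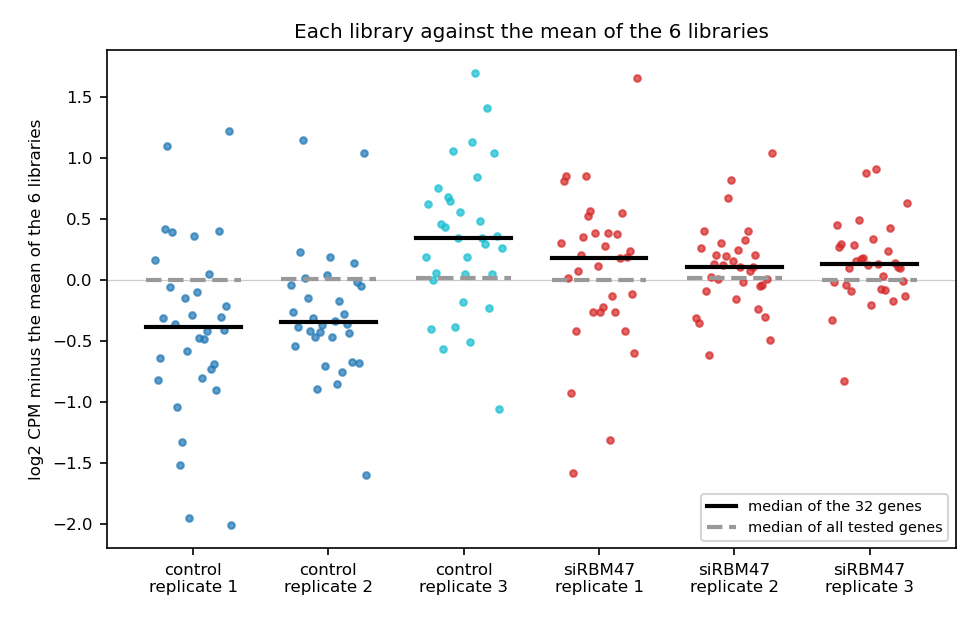
Log2 CPM of each of the 32 tested genes (points) minus its mean over the 6 libraries, by library, with the median of these genes (black line) and of all tested genes (grey dashed line). The medians are -0.38 and -0.34 in control replicates 1 and 2, 0.35 in control replicate 3, and 0.11 to 0.18 in the siRBM47 libraries.

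The interferon genes themselves, the ligands of the response, gave no reads. All 21 listed interferon genes, IFNB1 and the IFNA genes among them, had a count of 0 in all 6 libraries, and none could be tested. CXCL10 and CXCL11, chemokine genes that interferon strongly induces, also had 0 counts in all 6 libraries (named after their values were seen). Most of the type I interferon genes lie together on the short arm of chromosome 9, and their neighbours gave almost no reads either. From 20341665 to 22455740 on chromosome 9 (GRCh38, GENCODE release 29 annotation), none of 25 consecutive protein-coding genes reached a count of 10, 16 of them interferon genes and 9 others, including MLLT3, MTAP, CDKN2A and CDKN2B. The counts above 0 in this run were 9 for CDKN2A, 2 for FOCAD and 2 for KLHL9, all in control replicate 1. On either side, SLC24A2 had 31 to 82 counts and ELAVL2 63 to 157. U87 cells are known to carry a deletion that removes CDKN2A. From read counts a missing gene and a silent one cannot be told apart, so a count of 0 at IFNB1 cannot be read here as a lack of sensing. Interferon genes outside the run, namely IFNK, IFNG, IFNL1, IFNL2 and IFNL3, had 0 counts as well.

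**Figure D4:**
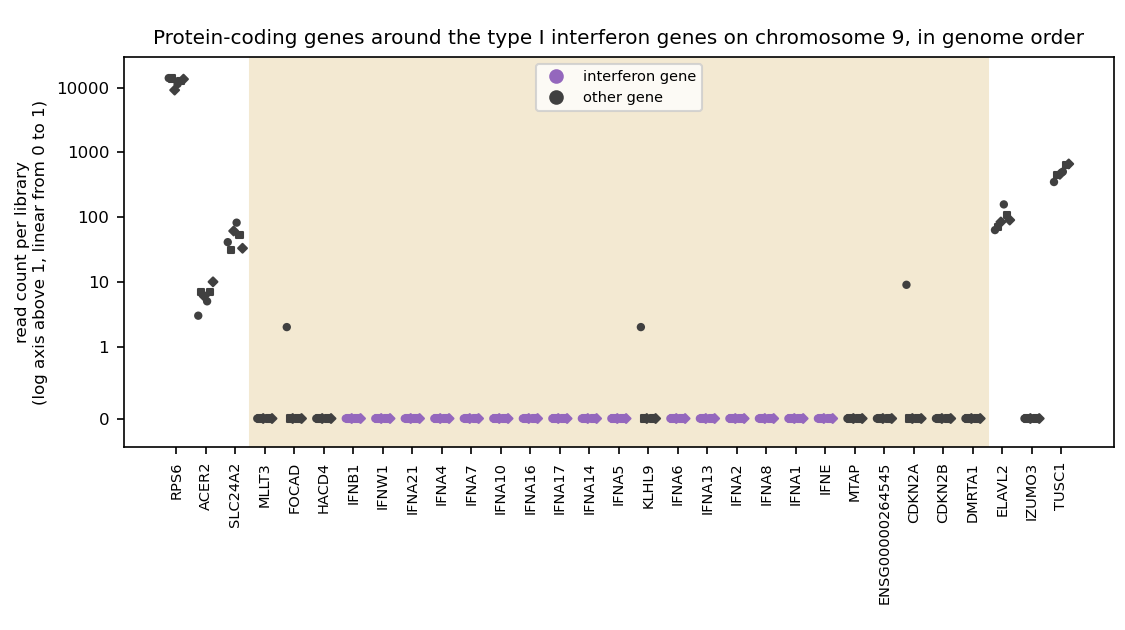
Read counts of protein-coding genes in genome order around the interferon genes of chromosome 9 (1 point per library, interferon genes and other genes in separate colours, with the run in which no gene reached 10 counts shaded). Within the shaded run nearly all points are at 0, and the genes SLC24A2 and ELAVL2 beside it have 31 to 157 counts.

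Among the sensors, RIGI was separated between the groups and the others were not. RIGI encodes RIG-I, which recognises RNA with a 5′ triphosphate or a blunt double-stranded end (chromosome 9, 32455705 to 32526324). Its level was 4.13, 4.43 and 4.90 CPM across the 3 controls and 11.7, 7.77 and 8.83 CPM across the 3 siRBM47 libraries. The groups did not overlap, control replicate 3 lay close to the other controls, and siRBM47 replicate 1 was highest. The log2 fold change was 1.07 (SE 0.26) with an edgeR adjusted p of 0.106, and without control replicate 3 it was 1.14 (SE 0.26) with an adjusted p of 0.00797. DESeq2 on all 6 libraries gave an adjusted p of 0.013. Over the alternatives that kept control replicate 3 the log2 fold change stayed between 0.89 and 1.21, with adjusted p from 0.013 to 0.359. The direction of RIGI was the same in every setting run, and its call depended on the tool, the filter and control replicate 3.

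IFI16, a sensor of DNA and the most abundant sensor per length, had 162, 141 and 165 CPM across the 3 controls and 178, 117 and 115 CPM across the 3 siRBM47 libraries. The groups overlapped, with siRBM47 replicate 1 highest of all and the other siRBM47 libraries lowest. Its log2 fold change was -0.19 (SE 0.21, edgeR adjusted p = 0.709). IFIH1, the MDA5 gene, lay between 2.10 and 5.75 CPM over the controls and between 2.91 and 6.57 CPM over the siRBM47 libraries, with overlapping groups and a log2 fold change of 0.26 (SE 0.44, edgeR adjusted p = 0.816).

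The transcription factors had differences of both signs. IRF9, the DNA-binding subunit of ISGF3 (chromosome 14, 24161053 to 24166565), had 23, 28 and 23 counts across the controls and 4, 8 and 7 across the siRBM47 libraries. That is 1.56, 1.61 and 1.22 CPM against 0.221, 0.457 and 0.391 CPM, with no overlap between the groups. The log2 fold change was -2.02 (SE 0.46) with an edgeR adjusted p of 0.0977, and -2.13 (SE 0.50) with an adjusted p of 0.0092 without control replicate 3. DESeq2 gave an adjusted p of 0.0311 on all 6 libraries, and the alternatives that kept control replicate 3 gave log2 fold changes of -2.22 to -1.77 with adjusted p from 0.0311 to 0.35. IRF9 is a low-count gene here, and 48.4% of its exon bases are shared on the same strand with the transcript AL136295.5, so reads may have been split or left out between the 2 annotations.

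IRF1, a transcription factor that interferon gamma induces through its GAS, the site printed above, stood at 21.2, 20.1 and 26.2 CPM across the 3 controls and 26.5, 34.6 and 31.6 CPM across the 3 siRBM47 libraries. The groups did not overlap, though siRBM47 replicate 1 was only just above control replicate 3. Its log2 fold change was 0.46 (SE 0.20, edgeR adjusted p = 0.308), and 0.58 (SE 0.19, adjusted p = 0.0411) without control replicate 3. Of its exon bases, 22.0% lie opposite other genes, whose reads this unstranded library kit cannot separate.

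STAT2, the most abundant factor of the group per length, had 47.1, 49.8 and 67.4 CPM across the 3 controls and 36.8, 50 and 47.7 CPM across the 3 siRBM47 libraries, with overlapping groups. The log2 fold change was -0.29 (SE 0.21, edgeR adjusted p = 0.542). IRF7, which amplifies interferon production, had a log2 fold change of -0.40 (SE 0.32, edgeR adjusted p = 0.581), and its lowest value, 3.37 CPM, was in siRBM47 replicate 1.

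ISG15 encodes a ubiquitin-like protein that is conjugated to other proteins during the response, and USP18 removes it again and dampens the receptor. ISG15 stood at 42.0, 28.8 and 21.6 CPM across the 3 controls and 33.6, 35 and 34.1 CPM across the 3 siRBM47 libraries. The 3 siRBM47 libraries were close together inside the range of the controls. Here control replicate 3 was the lowest library, not the highest. Its log2 fold change was 0.16 with a 95% interval of -0.40 to 0.71 (edgeR adjusted p = 0.799), and -0.05 without control replicate 3, a change of sign within the error. USP18 lay between 4.89 and 8.84 CPM over the controls and between 6.14 and 7.54 CPM over the siRBM47 libraries, a log2 fold change of 0.17 (SE 0.30, edgeR adjusted p = 0.82).

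The 4 IFIT genes, whose proteins bind foreign RNA ends and block its translation, lie next to one another on chromosome 10 between 89283694 and 89421001. All 4 had positive log2 fold changes, with a median of 0.51, beside 48.8% positive among all tested genes. All 4 were called higher without control replicate 3, against 10.1% of all tested genes. IFIT1, IFIT2 and IFIT3 shared a pattern across the libraries that IFIT5 did not. IFIT1 had 3.05, 5.06 and 10.1 CPM across the 3 controls and 8.06, 6.34 and 7.71 CPM across the 3 siRBM47 libraries. IFIT3 had 3.18, 4.32 and 16.8 CPM across the 3 controls and 11.6, 8.74 and 11.3 CPM across the 3 siRBM47 libraries. In both genes control replicate 3 was the highest of the 6 libraries and control replicate 1 the lowest, and the siRBM47 libraries lay between.

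For IFIT1 the log2 fold change was 0.27 (SE 0.40, edgeR adjusted p = 0.776) with all libraries and 0.85 (SE 0.28, adjusted p = 0.0453) without control replicate 3. Without control replicate 1 in place of 3, it was -0.03. IFIT3 changed more with the choice of controls, from 0.38 (SE 0.53, edgeR adjusted p = 0.768) to 1.49 (SE 0.26, adjusted p = 0.00168) without control replicate 3. IFIT2 had 0.812, 1.73 and 3.78 CPM across the 3 controls and 4.36, 2.97 and 2.68 CPM across the 3 siRBM47 libraries. Control replicate 3 lay within the siRBM47 range, and the log2 fold change was 0.65 (SE 0.51, edgeR adjusted p = 0.564), or 1.37 (SE 0.41, adjusted p = 0.0307) without that library.

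IFIT5 was the most abundant of the family per length, and it was separated by group with or without control replicate 3. It had 30.1, 24.7 and 25.4 CPM across the 3 controls and 49.4, 38.3 and 37.6 CPM across the 3 siRBM47 libraries, so the groups did not overlap and the controls lay close together. With all 6 libraries, the log2 fold change was 0.64 (SE 0.20, edgeR adjusted p = 0.168), and 0.61 (SE 0.19, adjusted p = 0.0362) without control replicate 3. Over the alternatives that kept that library, adjusted p ranged from 0.0798 to 0.512.

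The OAS proteins make the 2′-5′ oligoadenylates that switch on the nuclease RNase L, while OASL lacks that activity and enhances RIG-I signalling. OAS2 had 0.609, 1.5 and 3.62 CPM across the 3 controls and 3.20, 4.34 and 4.52 CPM across the 3 siRBM47 libraries, and control replicate 3 lay within the siRBM47 range. For OAS2 the log2 fold change was 1.06 (SE 0.53, edgeR adjusted p = 0.37), and 1.90 (SE 0.41, adjusted p = 0.00591) without that control. OASL, the most abundant of the 4 per length, had a difference of the other sign. It had 41.0, 36.5 and 33.1 CPM across the 3 controls and 26.6, 28.7 and 27.7 CPM across the 3 siRBM47 libraries, with no overlap. Its log2 fold change was -0.41 (SE 0.18, edgeR adjusted p = 0.301), and -0.48 (SE 0.17, adjusted p = 0.0546) without control replicate 3, where DESeq2 called it (adjusted p = 0.0394). OAS3 did not overlap between the groups either, at 23.5 to 29.5 CPM over the controls and 31.0 to 31.9 CPM over the siRBM47 libraries, but its log2 fold change was 0.27 (SE 0.18, edgeR adjusted p = 0.506). OAS1 lay between 1.62 and 3.94 CPM over the 6 libraries, with overlapping groups and a log2 fold change of 0.39 (SE 0.39, edgeR adjusted p = 0.668).

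MX1 and MX2 encode GTPases that trap viral nucleocapsids, and MX1 is among the most used reporters of type I interferon. MX1 stayed low in every library, from 1.21 to 1.92 CPM over the controls and 1.44 to 2.12 CPM over the siRBM47 libraries. Its log2 fold change was 0.24 with a 95% interval of -0.60 to 1.09 (edgeR adjusted p = 0.792). MX2, the more abundant of the pair per length, had 2.5, 2.76 and 2.45 CPM across the 3 controls and 4.25, 3.77 and 6.59 CPM across the 3 siRBM47 libraries. The groups did not overlap and the 3 controls were close together. The log2 fold change of MX2 was 0.92 (SE 0.32, edgeR adjusted p = 0.21), and 0.88 (SE 0.33, adjusted p = 0.0683) without control replicate 3, so it passed the threshold in neither.

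IFITM proteins block the fusion of enveloped viruses with cell membranes, and BST2 (tetherin) holds budding virus at the cell surface. IFITM3, the most abundant of all 34 genes per length, had 87.8, 70.0 and 119 CPM across the 3 controls and 70.9, 89.5 and 80.4 CPM across the 3 siRBM47 libraries. The groups overlapped and control replicate 3 was highest, with a log2 fold change of -0.20 (SE 0.22, edgeR adjusted p = 0.706). IFITM2, IFITM1 and BST2 were likewise highest in control replicate 3. IFITM2 had a log2 fold change of 0.05 (SE 0.38, edgeR adjusted p = 0.964), and 0.70 (SE 0.22, adjusted p = 0.0345) without that library, while BST2 moved from 0.02 to 1.02 and passed the threshold in neither. IFITM1 had 4 to 37 counts per library. The annotations of IFITM1 and IFITM2 share 32.5% of the exon bases of IFITM1 on the same strand, and the family is similar in sequence, so counts may have been split between them.

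PARP9 and PARP14, members of the ADP-ribosyltransferase family, followed the pattern of the IFIT1 group in the controls. PARP14 had 15.0, 19.4 and 31.6 CPM across the 3 controls and 32.3, 26.8 and 29.4 CPM across the 3 siRBM47 libraries. PARP9 had 9.34, 11.1 and 18.5 CPM across the 3 controls and 17, 17.3 and 20.3 CPM across the 3 siRBM47 libraries. In both genes the siRBM47 libraries lay above control replicates 1 and 2 and around control replicate 3. The log2 fold change of PARP14 was 0.42 (SE 0.27, edgeR adjusted p = 0.486), and 0.78 (SE 0.20, adjusted p = 0.0129) without control replicate 3. For PARP9 it was 0.49 (SE 0.28, edgeR adjusted p = 0.426), and 0.83 (SE 0.20, adjusted p = 0.0115).

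Of the 9 other effector genes, 7 were tested, and without control replicate 3 edgeR called XAF1 higher and ISG20 lower. Each is 14.3% of the tested genes of this group, against 10.1% higher and 11.3% lower among all tested genes. XAF1, a promoter of apoptosis, had 3, 5 and 21 counts across the controls and 54, 34 and 26 across the siRBM47 libraries. That is 0.203, 0.288 and 1.12 CPM against 2.98, 1.94 and 1.45 CPM, with no overlap although control replicate 3 was close to siRBM47 replicate 3. On the log2 scale the difference was 1.94 (SE 0.62, edgeR adjusted p = 0.18), and 3.06 (SE 0.58, adjusted p = 0.00261) without control replicate 3. With that library kept, adjusted p ranged from 0.0133 (edgeR with no filter on low counts) to 0.471. PRAL lies opposite 38.3% of its exon bases, and its reads cannot be separated from those of XAF1 in this kit.

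ISG20, an exonuclease that degrades RNA, was the reverse. It had 4.74, 4.2 and 0.958 CPM across the 3 controls and 1.33, 1.43 and 1.84 CPM across the 3 siRBM47 libraries. Control replicate 3 was the lowest library, below all 3 siRBM47 libraries, and the other controls were the highest. The fitted log2 fold change was -1.09 (SE 0.54, edgeR adjusted p = 0.359), and -1.54 (SE 0.33, adjusted p = 0.00515) without control replicate 3.

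IFI6, an inhibitor of apoptosis and the most abundant gene of this group per length, had 43.1, 48.5 and 64.2 CPM across the 3 controls and 46.2, 50.5 and 49.6 CPM across the 3 siRBM47 libraries. The siRBM47 libraries lay within the control range, with a log2 fold change of -0.09 and a 95% interval of -0.54 to 0.36 (edgeR adjusted p = 0.86). IFI27 and RSAD2 had too few counts to test. IFI27 had 14, 3 and 0 counts across the controls and 8, 4 and 5 across the siRBM47 libraries. RSAD2, the gene of the antiviral enzyme viperin, had 1, 0 and 15 counts across the controls and 4, 0 and 0 across the siRBM47 libraries. Its largest count was thus in control replicate 3. The remaining genes of the group, IFI35, IFI44, IFI44L and DDX60, had log2 fold changes of -0.26 to 0.17, all with an edgeR adjusted p of at least 0.702. IFI44L and DDX60 were highest in control replicate 3, at 20.1 and 12.2 CPM, and their log2 fold changes of -0.17 and -0.26 became 0.57 and 0.88 without it, past the threshold in neither.

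**Figure D5:**
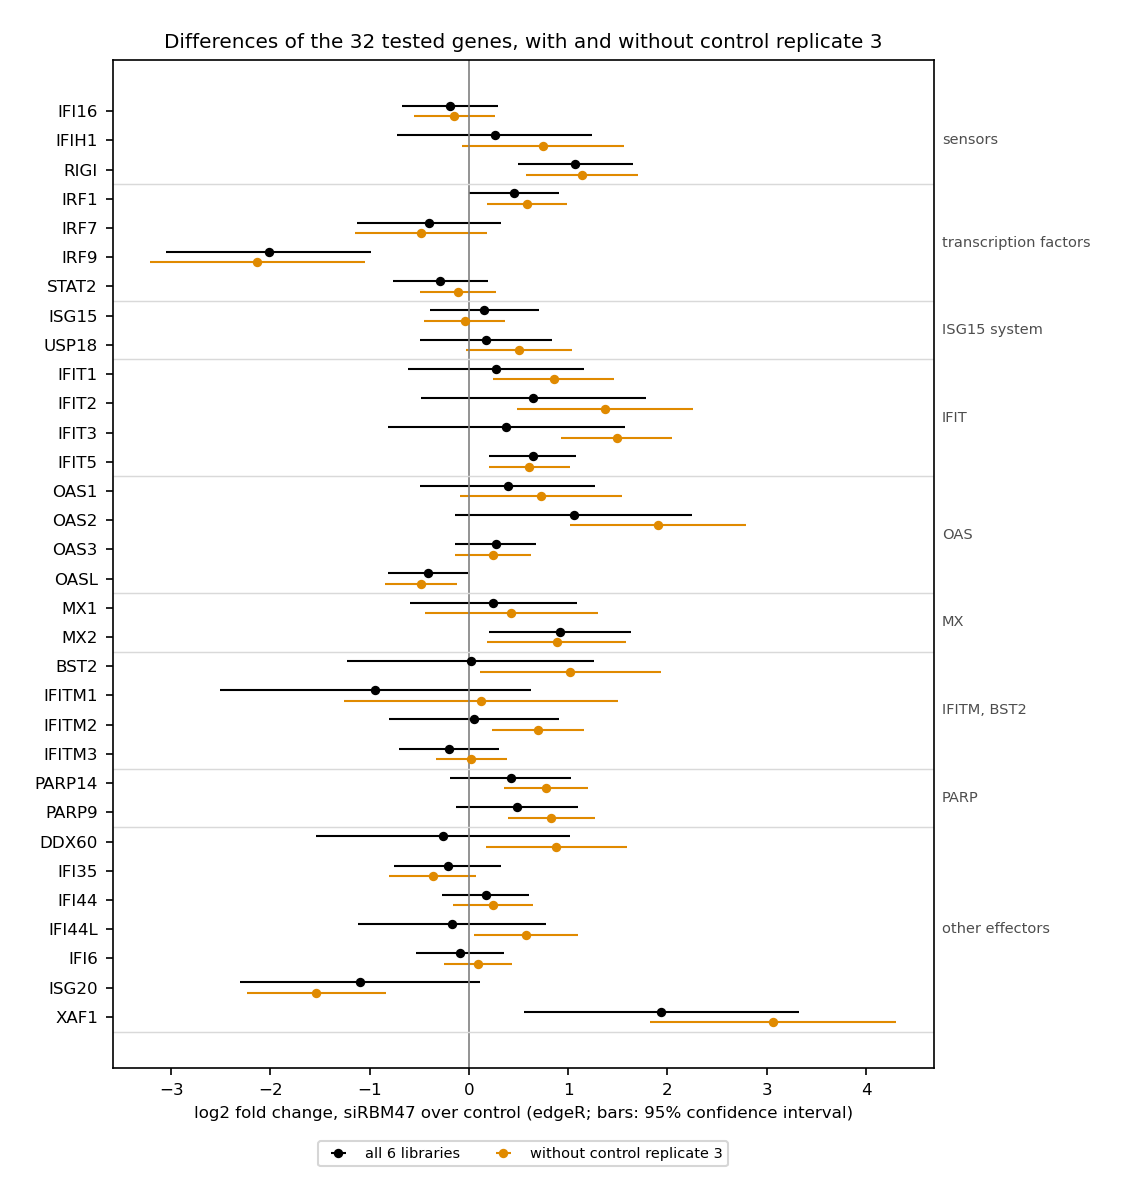
Log2 fold change of siRBM47 over control for the 32 tested genes, with all 6 libraries and without control replicate 3 (edgeR; points are estimates and bars 95% confidence intervals). RIGI, IFIT5, MX2 and IRF9 keep nearly the same value in both fits, while IFIT3, DDX60, XAF1 and BST2 move by about 1 or more.

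The rest of the pathway was read from 4 lists of 96 genes found in the files (interferon genes, RNA sensing and signal relay, receptors and JAK-STAT signalling, and other interferon-stimulated genes), of which 68 were tested. None was called by edgeR in either direction (8 higher and 7 lower at an unadjusted p under 0.05, against 7.15% and 8.94% of all tested genes). DESeq2 called 1 higher and 3 lower (1.79% and 2.63% of all genes), and limma-voom called 0 (0.0892% and 0.144%). Without control replicate 3 edgeR called 13 of the 68 higher (19.1%, against 10.1% of all tested genes) and 5 lower (7.35%, against 11.3%). Their median log2 fold change was 0.05 with all libraries and 0.16 without control replicate 3, against -0.01 and 0.02 for all tested genes.

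In the list of RNA sensing and signal relay, 17 of 20 genes were tested. TLR3, the endosomal receptor for double-stranded RNA, had the smallest p. It had 1.02, 1.21 and 2.29 CPM across the 3 controls and 4.31, 4.80 and 4.69 CPM across the 3 siRBM47 libraries, with no overlap. The log2 fold change of TLR3 was 1.60 (SE 0.37, edgeR adjusted p = 0.102), and 2.04 (SE 0.34, adjusted p = 0.00124) without control replicate 3. DHX58, another RNA sensor, lay on the other side, also with no overlap. It had 7.08 to 9.85 CPM over the controls and 4.31 to 5.87 CPM over the siRBM47 libraries. The log2 fold change of DHX58 was -0.60 (SE 0.26, edgeR adjusted p = 0.3), and -0.44 (SE 0.25, adjusted p = 0.227) without control replicate 3. RNF135, a ubiquitin ligase that activates RIG-I, lay at 40.4 to 46.2 CPM over the controls and 28.6 to 31.8 CPM over the siRBM47 libraries (log2 fold change -0.49, SE 0.17, edgeR adjusted p = 0.222, or -0.51 with adjusted p = 0.0435 without control replicate 3). MYD88, the adaptor of most other Toll-like receptors, lay at 28.5 to 36.4 CPM over the controls and 37.8 to 47.2 CPM over the siRBM47 libraries (log2 fold change 0.45, SE 0.19, edgeR adjusted p = 0.288, or 0.58 with adjusted p = 0.0314 without control replicate 3).

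All 14 genes of the receptor and JAK-STAT list were tested. SOCS3, a feedback inhibitor of cytokine receptors, had 76.4, 75.4 and 114 CPM across the 3 controls and 33.1, 40.7 and 39.4 CPM across the 3 siRBM47 libraries. Every siRBM47 library lay below every control, and the log2 fold change was -1.23 (SE 0.22, edgeR adjusted p = 0.069), or -1.01 (SE 0.16, adjusted p = 0.000972) without control replicate 3. PIAS1, a SUMO ligase, lay at 30.4 to 32.4 CPM over the controls and 18.3 to 20.3 CPM over the siRBM47 libraries (log2 fold change -0.70, SE 0.18, edgeR adjusted p = 0.117, or -0.67 with adjusted p = 0.0148 without control replicate 3), and other genes lie opposite 32.3% of its exon bases. PTPN2, a phosphatase that removes phosphate from JAK and STAT proteins, had a log2 fold change of 0.47 (SE 0.20, edgeR adjusted p = 0.296), or 0.59 (SE 0.19, adjusted p = 0.0404) without control replicate 3.

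Of 41 other interferon-stimulated genes found, 37 were tested. HERC5, the ligase that attaches ISG15, lay at 24.3 to 26.5 CPM over the controls and 14.3 to 17.5 CPM over the siRBM47 libraries, with no overlap (log2 fold change -0.67, SE 0.19, edgeR adjusted p = 0.145, or -0.71 with adjusted p = 0.0151 without control replicate 3). DDX60L, a paralogue of DDX60, had 8.94, 7.48 and 13.2 CPM across the 3 controls and 23.0, 14.5 and 16.1 CPM across the 3 siRBM47 libraries (log2 fold change 0.85, SE 0.28, edgeR adjusted p = 0.195, or 1.12 with adjusted p = 0.00572 without control replicate 3). HELZ2, a helicase, lay at 40.3 to 45.2 CPM over the controls and 23.8 to 35.9 CPM over the siRBM47 libraries (log2 fold change -0.58, SE 0.21, edgeR adjusted p = 0.223). Genes without overlap thus lay on both sides, as among the 34 genes. Over the 68 tested genes of the 4 lists, 11 lay above and 11 below without overlap, against 11.6% and 11.0% of all tested genes. In this list of 37, edgeR without control replicate 3 called 8 higher (21.6%) and 1 lower (2.7%). Of all tested genes it called 10.1% higher and 11.3% lower.

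Bulk libraries cannot tell fewer cells of a type from less RNA per cell, and markers of other cells were therefore summed in each library. Of 10 immune cell markers, ITGAM and AIF1 were at 0 in all 6 libraries, and the summed level was 12.5 to 26.1 CPM over the controls and 23.9 to 31.8 CPM over the siRBM47 libraries. Nearly all of that sum was CSF1R, the only one with enough counts to test, so the sum describes this gene and not the list. CSF1R had 11.6, 13.6 and 24.9 CPM across the 3 controls and 22.8, 27.4 and 31.6 CPM across the 3 siRBM47 libraries (log2 fold change 0.71, SE 0.30, edgeR adjusted p = 0.286). Without control replicate 3 it was called higher by edgeR (log2 fold change 1.11, SE 0.21, adjusted p = 0.00242). Of the 3 endothelial markers found, the sum was 1.49 to 4.52 CPM over the controls and 2.86 to 5.03 CPM over the siRBM47 libraries. VWF, at 3, 6 and 56 counts across the controls and 46, 21 and 31 across the siRBM47 libraries, was highest in control replicate 3. Its log2 fold change was 0.60 (SE 0.81, edgeR adjusted p = 0.754), and 2.68 (SE 0.58, adjusted p = 0.00591) without that library. Of the 8 tested markers of the labelled cells, 5 had positive and 3 negative log2 fold changes, and edgeR called none. Their median was 0.03, beside -0.01 over all tested genes. The lowest was that of OLIG2, an oligodendrocyte lineage factor (log2 fold change -0.83, SE 0.27, edgeR adjusted p = 0.19). OLIG2 lay at 5.96 to 8.41 CPM over the controls and 3.26 to 4.58 CPM over the siRBM47 libraries. The part of these markers in the values of the interferon-stimulated genes was not tested.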

How the data were processed

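RNA-seq libraries of U87 cells, 3 labelled control and 3 labelled siRBM47, were analysed from the deposited tables. The submitters' processing notes name HISAT2 2.0.5, featureCounts 1.5.0-p3 and the build hg38. Each deposited table lists raw counts and FPKM by gene, per the file headers. Annotation release, strand setting and read filters were not given in the sources used here. Per the labels' protocols, the kit does not mark strand. FPKM served only to compare levels between genes.

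The main test was edgeR 4.0.16 (R 4.3.3) with the quasi-likelihood method, TMM scaling, no block, and Benjamini-Hochberg adjustment over the 14578 genes that passed filterByExpr (minimum count 10), at a threshold of 0.05. Intervals are 95% intervals from the fitted standard error. Alternatives were RLE and upper quartile scaling, DESeq2 1.42.0, limma-voom (limma 3.58.1), unfiltered counts, a stricter filter (minimum count 50), a replicate block, and leaving out each library on the same 14578 genes. DESeq2 and limma-voom without control replicate 3 were chosen after seeing the data. The main fit was also run on simulated counts with the fitted spread of each gene and no library set apart. There it called 32.3% of genes changed 2-fold and 91.6% of genes changed 4-fold, so most 2-fold differences were missed. Exon overlaps were taken from GENCODE on GRCh38. Listed genes not matched by symbol were left out.

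The members and lists were chosen with earlier results of these data known. Values in every library are given for members past the threshold in the edgeR fit to all libraries or in a fit without 1 library, up to 12 by p, and for the most abundant member of each role. For other lists, up to 3 tested genes with the smallest p are named, and DHX58 was added after its values were seen. CXCL10, CXCL11, the markers at 0 and the chromosome 9 neighbours were named after their values were seen.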

Additional observations from a re-analysis of the deposited data

How the results depend on the processing

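Among the 34 interferon-stimulated genes, the log2 fold changes kept their sign and their side of the threshold for all 32 tested under RLE and upper quartile scaling and for the 26 left by a minimum count of 50. Counts of calls, given as higher and lower, depended on the tool and the filter. DESeq2 gave 1 and 1 among these genes, 1 and 3 in the pathway lists, and 261 and 383 over all tested genes. With no filter on low counts edgeR gave 2 and 1, 3 and 1, and 326 and 478. A minimum count of 50 gave 19 higher over all genes. Leaving out 1 library in turn gave 0 to 11 higher and 0 to 2 lower among the interferon-stimulated genes, 0 to 13 and 0 to 5 in the pathway lists, and 0 to 1473 and 0 to 1644 over all genes, the highest value each time without control replicate 3. Their median log2 fold change ranged from 0.01 to 0.58 in these fits. With that library left out, DESeq2 gave 11 and 3, 13 and 6, and 1634 and 1729, with a median of 0.58. Limma-voom then gave 11 and 2, 13 and 6, and 1393 and 1708, with a median of 0.57. The cause was not tested.

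Signs turned for some genes. IFI44L went to 0.0093 by limma-voom and 0.020 with the replicate block, and DDX60 to 0.058 and 0.077. Without control replicate 3, by DESeq2 and by limma-voom in turn, ISG15 gave -0.045 and -0.015, IFI6 0.092 and 0.091, IFI44L 0.58 and 0.57, DDX60 0.88 and 0.83, and IFITM3 0.025 and 0.030, while IFITM1 gave 0.13 by DESeq2. Leaving out 1 library in turn with edgeR, ranges that crossed 0 were -0.031 to 0.85 for IFIT1, -0.045 to 0.45 for ISG15, -0.20 to 0.091 for IFI6, -0.45 to 0.57 for IFI44L, -0.15 to 0.75 for IFIH1, -0.61 to 0.88 for DDX60, -0.30 to 1.02 for BST2, -1.30 to 0.12 for IFITM1, -0.22 to 0.70 for IFITM2 and -0.36 to 0.025 for IFITM3.

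Deviations of same-numbered control and siRBM47 libraries from their group means correlated at -0.024, 0.104 and 0.12. Those of differently numbered libraries correlated at -0.187 to 0.185. With 3 libraries per group these values cannot decide whether same-numbered libraries shared a batch. The fit with the replicate block changed no call among the interferon-stimulated genes, gave a median of 0.23, and called 15 genes higher and 24 lower over all tested genes. Depth limits IRF9, XAF1, OAS2, IFITM1, IFI27 and RSAD2, each with a library under 10 counts.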
